A study of Homo sapiens with 6 samples.

Results

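Transcripts of the RB family, of the E2F transcription factors and of the G1 cyclins D1 and E1 were examined in prometaphase HEK293T cells, with and without Stau1 made from a plasmid. The 10 genes, RB1, RBL1, RBL2, E2F1 to E2F5, CCND1 and CCNE1, were taken by symbol, and all 10 had a row among the 37879 rows of the array table. HEK293T, a kidney line of human embryonic origin, expresses large T antigen of the virus SV40, so cells of both groups made that protein. In the control group, cells received an empty vector (3 arrays). In the Stau1 group, cells received a plasmid coding for Stau155-FLAG (3 arrays), in which a Rous sarcoma virus promoter drives the 55-kDa form of the RNA-binding protein Staufen1, while the cells kept their own STAU1 gene. All cells were arrested in prometaphase by nocodazole, a microtubule poison, at 50 ng/ml over 15 h per the labels (the methods give a longer time). The expression was transient, and the sources used here do not say whether the 3 arrays of a group came from separate cultures, so the tests measure the spread between these samples, which may be technical.

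The pocket proteins, encoded by RB1, RBL1 (p107) and RBL2 (p130), bind E2F factors and hold the genes of DNA synthesis silent in G1. E2F1, E2F2 and E2F3 are the activators that pair mainly with RB1, whereas E2F4 and E2F5 act mostly as repressors with p107 and p130. Cyclin D1 with CDK4 or CDK6, then cyclin E1 with CDK2, phosphorylate the pocket proteins and free the E2Fs, and large T antigen reaches a like end by binding the pocket proteins directly.

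Several of these genes are known to be targets of E2F themselves, and their promoters are shown for the letters of the E2F site. RefSeq promoter sequences (GRCh38.p14, 250 bases before to 50 after the start) were searched for 8 of the 10 genes, and those of E2F5 and CCND1 were not analysed here. The search covered 10 promoters, as RBL2 and E2F3 had 2 each, and looked on both strands for the 4 spellings of the E2F site, TTTCGCGC, TTTGGCGC, TTTCCCGC and TTTGCCGC, which do not contain one another. A match was found in 4 of the 10, those of RBL1, E2F1 and E2F2 and 1 of the 2 of E2F3, and none in those of RB1, RBL2, E2F4 and CCNE1. Over the 35116 promoters of the same length that were searched, 3.31% held a match. The matches are shown in windows of 30 bases, read 5′ to 3′ along the gene, with each match in capitals.
RBL1 (chr20:37096000-37096029, minus strand): gcagatTTTCGCGCgcTTTGGCGCaggtgg
E2F1 (chr20:33686394-33686423, minus strand): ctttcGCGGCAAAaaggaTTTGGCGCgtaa
E2F2 (chr1:23531257-23531286, minus strand): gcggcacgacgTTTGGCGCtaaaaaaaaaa
E2F3 (chr6:20401815-20401844, plus strand): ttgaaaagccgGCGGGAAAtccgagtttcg

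RBL1 and E2F1 each held 2 matches, while 0.15% of the promoters searched held 2 or more. In E2F1 the first of them, which begins 33 bases before the start, reads on the opposite strand, as does that of E2F3. These matches describe the letters in the windows and do not show that a factor was bound in these cells.

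The arrays were compared by detection and by correlation, and RNA quality was not examined. For rows of 1 probe, the detection p ranks the intensity against 759 negative control signals on the same array. That of a row averaged over probes need not follow its mean intensity. A row counted as detected where its detection p was under 0.05. That held for 12730 to 13469 rows on an array, and the 13285 rows (35.1%) detected on at least 3 arrays were tested. Across those rows, Pearson's r between arrays ran from 0.987 to 0.996, and control replicate 1 was furthest from the others (0.987 to 0.991). Control replicate 3 stood closer to the Stau1 arrays (0.9952 to 0.9958) than to control replicates 1 and 2 (0.987 and 0.992). Its omission was the only one after which any rows were called (39 of 13285, limma, adjusted p under 0.05). On the log2 scale the STAU1 row averaged 11.31 ± 0.10 (SD) over the 3 control arrays and 11.46 ± 0.06 (SD) over the 3 Stau1 arrays. The difference of 0.15 (SE 0.09) did not pass the test (limma, adjusted p = 0.999). Permuting the arrays exactly gave a two-sided p of 0.1, the smallest possible here, so the groups did not overlap, as in 7.91% of all tested rows. By western blot, the study found the FLAG-tagged protein at a lower level than the cells' own Stau1. Of 7 markers chosen for HEK293 cells, NEFM, NEFL, VIM, KRT8 and KRT18 were detected on all 6 arrays, LHX1 on 4 and PAX2 on 1, and KRT8 had a change of -0.61 (SE 0.17, limma, adjusted p = 0.999). Among markers of other cells, CDX2 (gut) and COL1A1 (fibroblasts) were detected on all 6 arrays, while VIL1, CDH17, PTPRC, CD3E, COL3A1, DCN and LUM were detected on 0 and KRT20 on 1.

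Of the 10 genes, 9 were detected on all 6 arrays and E2F1 on 0 of 6. No change between the groups was called in any of the 9. In limma 0 passed an adjusted p of 0.05 (lowest adjusted p = 0.999), where 0% of all tested rows were called. An unadjusted limma p under 0.05 was met by 0 of the 9, against 3.73% of all tested rows. With the methods' t-test, 0 of the 9 had an unadjusted p under 0.05 (3.49% of the tested rows did), and 0% of the tested rows met it with a change over 2-fold. For this comparison the study, counting single probes, reported a few past 2-fold at a p under 0.05, whereas the rows here are means per gene. The control and Stau1 values overlapped in all 9, while 7.91% of all tested rows did not overlap. The 95% confidence intervals came from limma, which shares the spread over rows, and with all 6 arrays lay within 1.5-fold for each of the 9. Their bounds reached from 0.688 to 1.30 times the control level, and 86.9% of all tested rows had intervals inside the same limits. With some arrays left out, the interval of RB1 or RBL1 went beyond 1.5-fold, to 0.617 times the control level at the furthest. These are intervals for single genes, without correction for their number. As RNA of whole cultures was measured, fewer cells making a transcript and less transcript per cell cannot be told apart.

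**Figure D1:**
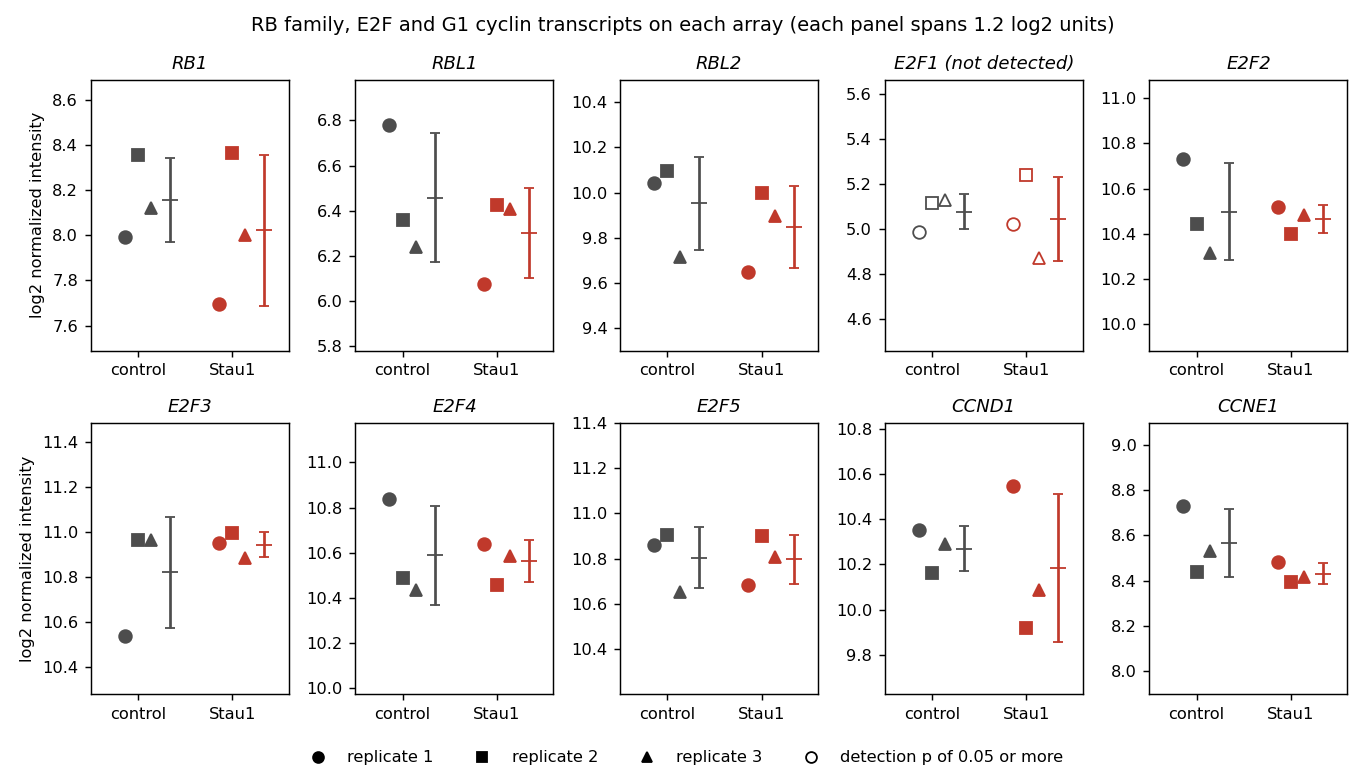
Log2 normalized intensity of the 10 genes on each array, in control (grey) and Stau1 (red) samples, with the mean and SD (n = 3) beside the points. Every panel spans the same 1.2 log2 units around its own mean, and open symbols mark arrays on which the gene was not detected (E2F1 only). The groups overlap in every panel.

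RB1, on chromosome 13 (the deposited table gives chromosomes and strands but no positions or build), encodes the retinoblastoma protein. Its transcript is one that the study singled out for follow-up. That follow-up measured RNA bound to the cells' own Stau1, and total RNA, in arrested against unarrested cells, a different comparison from the one here. On the log2 normalized scale RB1 stood at 7.99, 8.36 and 8.12 in control replicates 1, 2 and 3, and at 7.70, 8.37 and 8.003 in Stau1 replicates 1, 2 and 3. The lowest and the highest values both came from Stau1 arrays, so the controls lay wholly inside the Stau1 range. RB1 had the widest spread over the 6 arrays of the 9 detected genes (SD 0.25), and its pooled SD within the groups, 0.27, was larger than that of 86.9% of the tested rows. Its change with Stau1 was -0.13 (SE 0.18, 95% interval from -0.51 to 0.25, limma, adjusted p = 0.999). The standard error over its 41 to 55 beads was 2.80% to 4.56% of the intensity, whereas the lowest and highest arrays differed 1.59-fold.

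RBL1 (p107, chromosome 20) lay near the background, with unnormalized intensities from 124 to 168 where the background means of the arrays were 74.6 to 92.7. Its normalized values were 6.78, 6.36 and 6.24 in control and 6.07, 6.43 and 6.41 in Stau1 replicates 1, 2 and 3. Control replicate 1 was the highest array and Stau1 replicate 1 the lowest, and the other 4 arrays lay close together. The change was -0.16 (SE 0.18, interval from -0.54 to 0.23), and without control replicate 1 it was 0.00503. The bead numbers of this row fit a mean over at least 2 probes, and probes that differ cannot be seen apart in it.

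RBL2 (p130, chromosome 16), the pocket protein of resting cells, was bright, with unnormalized intensities from 811 to 1196. It measured 10.04, 10.10 and 9.71 in control and 9.65, 10.00 and 9.90 in Stau1 replicates 1, 2 and 3. Control replicate 3 fell among the Stau1 values, and the change was -0.10 (SE 0.13, interval from -0.39 to 0.18). All 3 pocket protein genes thus had a lower mean with Stau1, each by less than its interval.

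**Figure D2:**
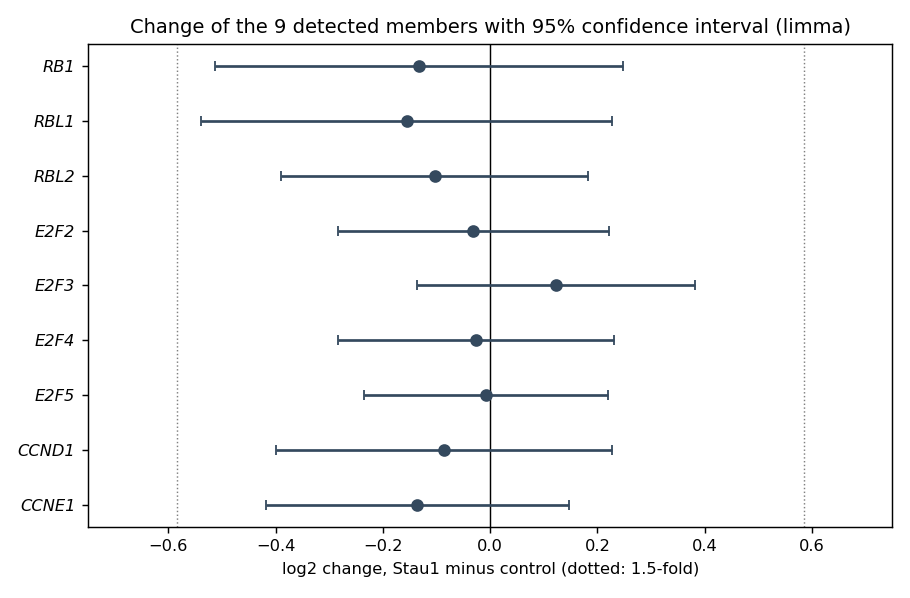
Log2 change (Stau1 minus control) of the 9 detected genes with its 95% confidence interval from limma. Every interval crosses 0 and lies between the dotted lines at 1.5-fold in either direction.

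E2F1 (chromosome 20), the activator known for driving S phase entry, was not detected. Its unnormalized intensity was 86.9, 91.9 and 107 in control and 82.6, 110 and 93.5 in Stau1 replicates 1, 2 and 3, with detection p-values from 0.0698 to 0.372. On each array this was 78.6% to 95.9% of the lowest intensity that counted as detected among rows of 1 probe. The row rests on 1 probe and on 18 to 40 beads, so no ratio between the groups is given, and this row does not say whether another part of the transcript would have been seen.

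E2F2 (chromosome 1), in contrast, was detected at a p of 0 on every array, with unnormalized intensities from 1364 to 1689. It measured 10.73, 10.45 and 10.32 in control and 10.52, 10.40 and 10.48 in Stau1 replicates 1, 2 and 3. The 3 Stau1 values lay inside the range of the controls, and the change was -0.03 (SE 0.12, interval from -0.28 to 0.22).

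E2F3 (chromosome 6) was the only 1 of the 9 with a higher mean in Stau1 arrays (11.1% of the 9, against 49.4% of all tested rows). Its values were 10.54, 10.96 and 10.96 in control and 10.95, 11.00 and 10.88 in Stau1 replicates 1, 2 and 3. Control replicate 1 stood alone at the low end, and the other 5 arrays lay between 10.88 and 11.00. The change of 0.12 (SE 0.12, interval from -0.14 to 0.38) rested on that array, since without it the change was -0.02. The 2 detected activators therefore moved in opposite directions, both by less than their spread.

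E2F4 (chromosome 16), a repressor of resting and early G1 cells, measured 10.84, 10.49 and 10.44 in control and 10.64, 10.46 and 10.59 in Stau1 replicates 1, 2 and 3. Like E2F2, it was highest in control replicate 1, and the Stau1 values fell within the control range. Its change was -0.03 (SE 0.12, interval from -0.28 to 0.23), and 0.10 without control replicate 1.

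E2F5 (chromosome 8), the p130-binding factor, had the narrowest range of the set, with 10.86, 10.91 and 10.65 in control and 10.68, 10.90 and 10.81 in Stau1 replicates 1, 2 and 3. Its 6 arrays differed at most 1.19-fold, and its change of -0.00814 (SE 0.11) had an interval from -0.24 to 0.22.

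CCND1 (chromosome 11) encodes cyclin D1, which couples growth signals to the pocket proteins. It measured 10.35, 10.16 and 10.29 in control and 10.55, 9.92 and 10.09 in Stau1 replicates 1, 2 and 3. The controls were close together (SD 0.10, n = 3), and the Stau1 arrays were spread (SD 0.33, n = 3), with both the highest and the lowest value of the set. The change was -0.09 (SE 0.15, interval from -0.40 to 0.23). Without Stau1 replicate 1 it was -0.27 and without Stau1 replicate 2 it was 0.05, and it passed the test in neither fit (limma, adjusted p = 0.999 and 1.00).

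CCNE1 (chromosome 19) encodes cyclin E1, the partner of CDK2 at the start of S phase. Its values were 8.73, 8.44 and 8.53 in control and 8.48, 8.39 and 8.42 in Stau1 replicates 1, 2 and 3. Only control replicate 2 lay below a Stau1 value, and the overlap was that of a single pair. The change of -0.14 (SE 0.13, interval from -0.42 to 0.15) had the lowest unadjusted p of the 9 (limma, 0.316, adjusted 0.999). Permuting the arrays exactly gave a two-sided p of 0.2, where 3 arrays against 3 cannot give less than 0.1. CCNE1 and RBL2 were the 2 genes that stayed lower with Stau1 whichever array was left out, though RBL2 came to -0.00538 without Stau1 replicate 1. The bead numbers of this row fit a mean over at least 4 probes.

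**Figure D3:**
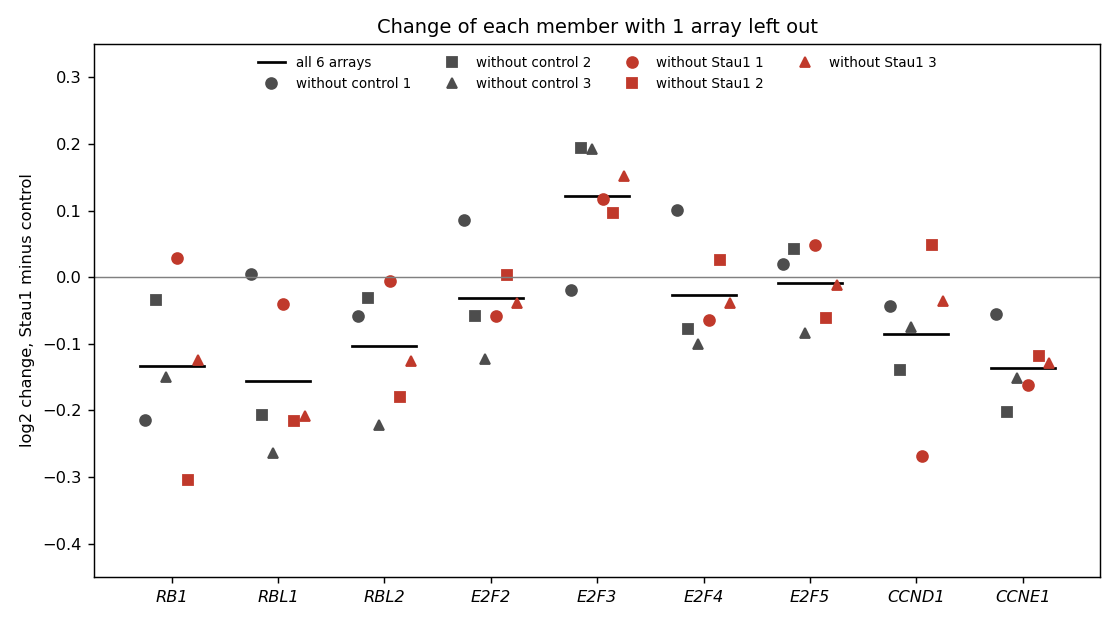
Log2 change (Stau1 minus control) of the 9 detected genes with all 6 arrays (bar) and with each array left out in turn (points; grey for a control array, red for a Stau1 array). Points lie on both sides of 0 for 7 of the 9 genes, and on 1 side for RBL2 and CCNE1.

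Taken as a set, the 9 detected genes had a median change of -0.09, where the median over all tested rows was -0.00206, and 8 of the 9 had a lower mean with Stau1. Their median absolute change, 0.10, stood close to that of all tested rows, 0.09, as did their median SD within the groups (0.18 against 0.16). With 1 array left out, the median ran from -0.12 (without control replicate 3) to -0.02 (without control replicate 1), and the number with a higher mean from 1 to 4 of the 9. Which array was extreme differed between genes, as control replicate 1 was the highest for 4 of the 9, while control replicate 3 and Stau1 replicate 1 were each the lowest for 3. Centred on each gene's mean, the median over the 9 genes was 0.14 in control replicate 1 and -0.14 in control replicate 3, and between -0.02 and 0.05 in the other 4 arrays.

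For RB1, the gene with the largest SD over the arrays, the rows most alike were sought by the root mean square difference of values centred on each row's mean, over 6 arrays and all tested rows. The nearest were RARB (0.04 on the log2 scale), C3ORF58 (0.04) and HNRPH3 (0.05), and all 3 shared its low value in Stau1 replicate 1 and its high values in replicate 2 of both groups. They are the closest of 13285 rows over few arrays, and this likeness is a description only.

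The rest of the pathway was followed through 6 lists that together held 79 genes, of which 73 were detected well enough to be tested. In limma 0 of the 73 passed (adjusted p = 0.999 for each gene named here), as did 0% of all tested rows. An unadjusted limma p under 0.05 was met by 4 (5.48%), against 3.73% of all tested rows. TFDP3, E2F8, CCNE2, FBXW7, CDKN2D and GINS1 were not tested, and of these TFDP3, CCNE2 and GINS1 were detected on 0 of 6 arrays. The mean intensity of the CCNE2 row was 212 to 364. That is above the lowest intensity that counted as detected among rows of 1 probe (96.9 to 119 on the arrays). The detection calls therefore do not show that CCNE2 was absent.

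Among E2F partners and the other E2Fs, 4 of 6 were tested, with changes from -0.07 to 0.10 and a median of 0.02, and E2F6, a repressor that does not bind the pocket proteins, had the lowest p (change 0.10, SE 0.11). The kinases and other cyclins of G1 and S phase (9 of 11 tested) had changes from -0.13 to 0.15 with a median of -0.03, and the lowest p was that of CDC25A, the phosphatase that activates CDK2 (change 0.15, SE 0.11, and 0.07 without control replicate 2). For CDK inhibitors (6 of 7 tested) the median was -0.00098, and CDKN1C (p57) had the lowest p, with a change of -0.12 (SE 0.16). Without control replicate 2 or Stau1 replicate 1 the CDKN1C change was -0.23 or -0.20, and without control replicate 3 or Stau1 replicate 2 it was -0.05 or -0.02. The genes listed for MuvB and for DREAM, the complex that joins p107 or p130 to E2F4, had a median of 0.03 over 7 tested. MYBL2, an E2F target that takes the place of the pocket proteins on MuvB, had the lowest p, with a change of 0.25 (SE 0.20). The MYBL2 change was 0.04 without control replicate 1, 0.13 without Stau1 replicate 1 and 0.46 without control replicate 3 (limma, adjusted p = 0.289 in the last). MYBL2 and CDKN1C lay near the background. Their unnormalized intensities were 89.1 to 147 for MYBL2, detected on 4 of 6 arrays, and 113 to 156 for CDKN1C, detected on 6.

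**Figure D4:**
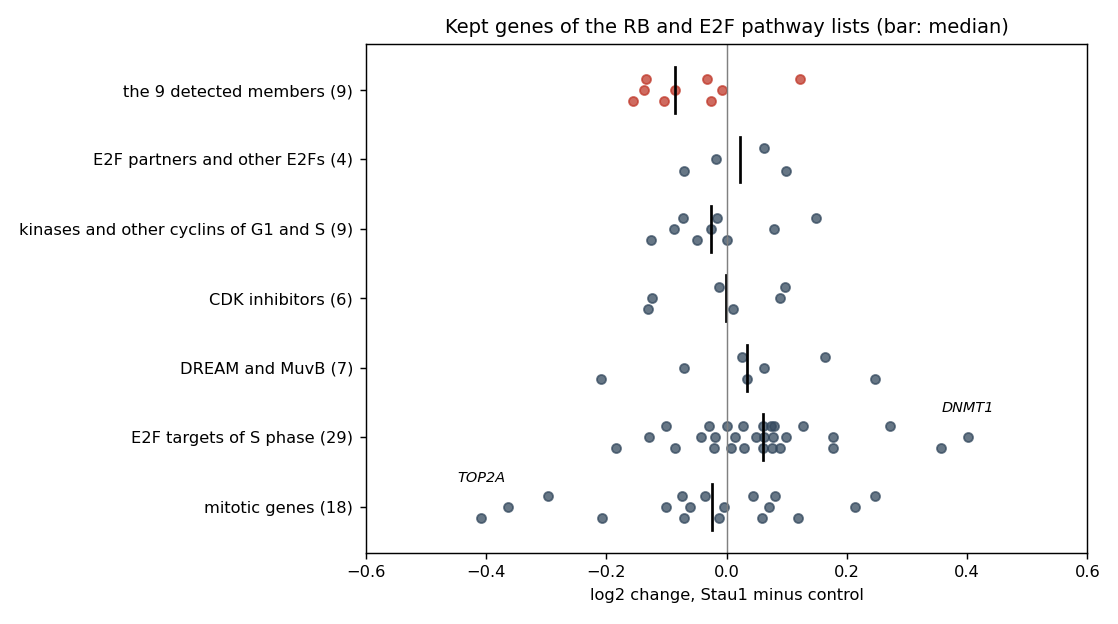
Log2 change (Stau1 minus control) of each tested gene in the set described here (red) and in 6 lists of pathway genes (blue), with the number tested in brackets and the median as a bar. The points centre near 0 in each list and reach furthest in DNMT1 (0.40) and TOP2A (-0.41).

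The E2F targets of S phase, such as the MCM helicase, PCNA and ribonucleotide reductase genes, had a median change of 0.06 over 29 tested, and 21 of the 29 (72.4%) had a higher mean with Stau1, against 49.4% of all tested rows. In limma 0 of the 29 passed and 2 had an unadjusted p under 0.05, where 3.73% of all tested rows did. DNMT1, the maintenance DNA methyltransferase, had the lowest p of this list. It measured 12.29, 12.22 and 12.77 in control and 12.78, 12.79 and 12.91 in Stau1 replicates 1, 2 and 3. Control replicate 3 lay just below the Stau1 arrays and the other controls further below. The groups thus did not overlap, as in 3 of the 29 genes of this list, DNMT1 included, and in 7.91% of all tested rows. Its change was 0.40 (SE 0.12, limma, adjusted p = 0.999). Without control replicate 3 the change was 0.58 and DNMT1 passed (limma, adjusted p = 0.0143), the only gene of the 6 lists to do so, in a fit that called 39 of 13285 rows (0.294%). The other gene of the list with a low unadjusted p, CDT1, a licensing factor named after its values were seen, had a change of 0.36 (SE 0.16). The share with a higher mean moved with the same arrays, from 82.8% without control replicate 3 to 55.2% without control replicate 1.

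Mitotic genes, which are known to be high in cells at this stage, were all detected on every array (18 of 18), and 0 passed in limma. Their median change was -0.02, with 7 of 18 higher with Stau1, against 49.4% of all tested rows. TOP2A, the topoisomerase that untangles chromosomes, had the lowest p, with 10.87, 10.95 and 10.34 in control and 10.21, 10.48 and 10.24 in Stau1 replicates 1, 2 and 3. Its change was -0.41 (SE 0.15, limma, adjusted p = 0.999). Without control replicate 3, the control array that lay among the Stau1 arrays, the change was -0.60 (limma, adjusted p = 0.0523). CENPF, named after its values were seen, was the other mitotic gene at an unadjusted p under 0.05, with a change of -0.36 (SE 0.15). These were 2 of the 18, where 3.73% of all tested rows met that p in limma.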

How the data were processed

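Total RNA of 6 samples was hybridized by the authors to Illumina HumanWG-6 v3 BeadChips. Per the file headers, the deposited table is a BeadStudio gene profile with no normalization: for each gene and array, an intensity averaged over probes, a detection p-value against negative controls and a bead standard error, which the authors gave in units of signal. The genome build of the probes is not given in the sources used here. Samples were grouped by their titles.

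With limma 3.58.1 in R 4.3.3, intensities were corrected by normexp, with the background inferred from the detection p-values of the 30932 rows of 1 probe (whole bead numbers and p in steps of 1 in 759, tolerance 0.002), given an offset of 16, quantile normalized and set on the log2 scale. Rows detected (p under 0.05) on 3 or more arrays were fitted (lmFit, eBayes with a trend) and adjusted by Benjamini-Hochberg over 13285 rows. The t-test, which the methods name for RNA pulled down with Stau1, was run here as two-sided with equal variances. Genes named were the 10 genes, STAU1, the lowest p of each list and the rows most like the most variable gene. CDT1, CENPF, the markers and the genes not tested were named besides, CDT1 and CENPF after their values were seen. Median bead numbers were 40 to 41 per row, and the number of arrays limits the precision. Figures were drawn with matplotlib 3.10.9. The members and lists were chosen with earlier results of these data known. Alternatives were other background corrections, transformations, normalizations and filters, a fit without trend, weights per array, the replicate number as a block, and each array omitted in turn. Same-numbered arrays were checked for pairing. One marker of another cell type is not reported here.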

Additional observations from a re-analysis of the deposited data

How the results depend on the processing

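In limma 0 of the 10 genes passed, and 0 had an unadjusted p under 0.05, under the 11 alternatives that kept 6 arrays and the 6 that left 1 out; the methods' t-test gave 0 under its alternatives, also with limma's unadjusted p or at 1.5-fold. Of 97 changes recomputed on 6 arrays, 90 kept their direction. Those that reversed were E2F2 (0.0537 with median scaling, 0.00978 with array weights), E2F4 (0.0582 and 0.0332 with the same settings) and E2F5 (0.00297 with the generalised log, 0.00711 with cyclic loess and 0.0863 with median scaling). Median scaling moved the median of all tested rows to 0.0659; the cause of the other reversals was not tested.

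With 1 array left out, changes ran from -0.305 to 0.0294 for RB1, -0.263 to 0.00503 for RBL1, -0.123 to 0.0854 for E2F2, -0.0200 to 0.194 for E2F3, -0.101 to 0.101 for E2F4, -0.0834 to 0.0487 for E2F5 and -0.269 to 0.0479 for CCND1. The changes of RBL2 ran from -0.223 to -0.00538 and those of CCNE1 from -0.202 to -0.0546. The median change of the set kept its sign under every alternative. The pathway genes called numbered 0 with 6 arrays and 0 to 1 with 1 left out. Intervals stayed within 1.5-fold for all tested genes of the set with 6 arrays, except RB1 and E2F3 under median scaling (1.61-fold at most). With 1 array left out, those of RB1 or RBL1 reached 0.617-fold.

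Deviations of same-numbered arrays correlated at 0.02, 0.26 and -0.14, which did not meet the rule for pairs. A fit with the replicate block called 0 of the set, at a median change of -0.0855. A detection p under 0.01 on all arrays removed RBL1 and CCNE1 along with E2F1. Signal over background limits E2F1 and RBL1 in the set, and MYBL2 and CDKN1C among the named genes of the lists.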
